A study of Mytilus coruscus with 2 samples.

Results

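The regions described here are the Nrf2 peaks that lay in gene promoters of the hard-shelled mussel *Mytilus coruscus*. They are all peaks that the authors' annotation placed in the classes promoter(1k), promoter(2k) or promoter(3k), which reach up to 1, 2 and 3 kb upstream of a transcription start site (TSS). There were 251 such peaks among 3465 peaks in all, which is 7.24% (Wilson 95% interval 6.43% to 8.16%), and they belonged to 226 genes. The study's text gives the same percentage for promoter TSS regions. Elsewhere it gives another number of promoter peaks without saying how it was counted, and the deposited classes are used here as they stand. The peaks came from 1 Nrf2 ChIP library set against 1 input library, both made from digestive gland tissue with no treatment named in the labels. ChIP-seq sequences the DNA that an antibody holds through its protein, and the input is the same kind of chromatin without that selection. Neither library has a replicate, so no value below carries a replicate error and no test between conditions was possible. The sources used here name neither the antibody nor the number of animals behind the chromatin. No sorting of the gland's cells by type is described, so binding in few cells and weak binding in many cells cannot be told apart, and the tissue label could not be checked against marker genes because no expression was measured.

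Nrf2 is a transcription factor of the basic leucine zipper (bZIP) family that pairs with small Maf proteins on antioxidant response elements. In unstressed cells its partner Keap1 leads it to ubiquitin ligases and the proteasome, and oxidants or electrophiles release it. In vertebrates its known targets include genes of glutathione synthesis, quinone reduction and conjugation of foreign compounds. The digestive gland is the main site of digestion and detoxification in bivalves. The study asked which genes might be targets of the mussel factor. It took all peaks as candidates and looked separately at those in promoters. Gene names below are the best database matches of mussel genes in other species, and the roles given are those known for the matched proteins, mostly from vertebrates, insects or yeast.

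The promoter peaks were spread over the whole 3 kb and did not crowd at the TSS. Each 500 bp window from 3000 to 0 bp upstream held 36 to 44 peaks. The windows from 6000 to 3000 bp upstream held 17 to 31, and those from 0 to 3000 bp downstream held 31 to 59. Seen from the summit, the peaks ran from 3000 bp upstream to 93 bp downstream, with a median of 1435 bp upstream (95% interval of the median 1285 to 1667 bp). Only 9 summits (3.59%, 1.90% to 6.67%) lay downstream of the TSS. The promoter(1k), promoter(2k) and promoter(3k) classes held 84, 87 and 80 peaks, or 33.5%, 34.7% and 31.9%. The sources do not say how the annotation chose between a promoter and an overlapping intron of another gene, and its part in the step at 3 kb was not tested. The outermost promoter peak, 3000 bp upstream of *ENPP5*, a phosphodiesterase of extracellular nucleotides (M.coruscus_chr9_0556), had 4.84-fold enrichment. The nearest peak beyond the limit, 3024 bp upstream of a gene matching the kinase PAK5 (M.coruscus_chr3_3124), had 4.43-fold. All peaks from 3000 bp upstream to 93 bp downstream were in the promoter classes.

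**Figure D1:**
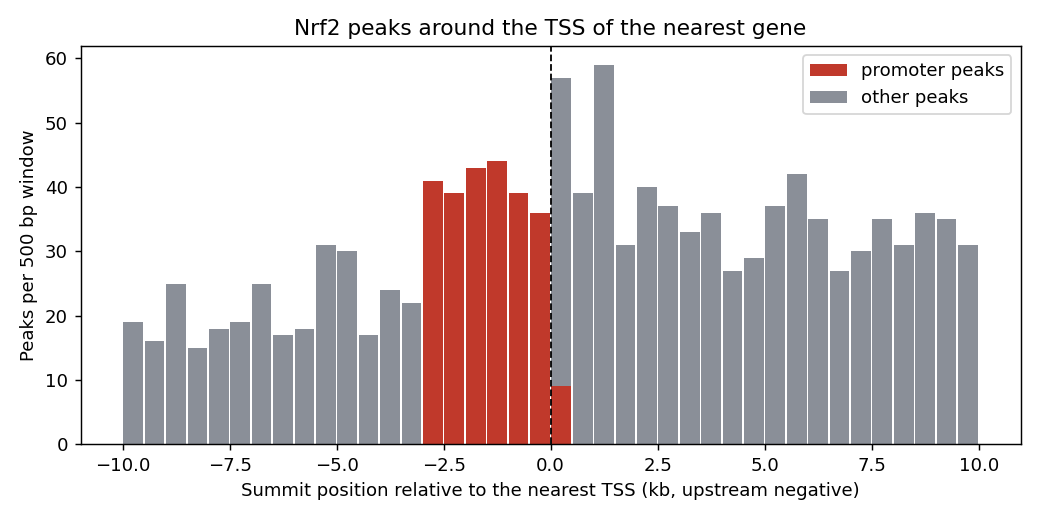
Number of Nrf2 peaks per 500 bp window (vertical axis) against the position of the peak summit relative to the TSS of the nearest gene (horizontal axis, kb, upstream negative). Red bars are promoter peaks and grey bars are other peaks. The 6 windows upstream of the TSS hold 36 to 44 promoter peaks each, and the 9 promoter peaks downstream of the TSS sit at the foot of the first downstream bar.

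In strength the promoter peaks were much like the rest. The pileup, which is the number of ChIP fragments over the summit, had a median of 15 (95% interval 14 to 16) and ran from 8 to 216 in promoters, against a median of 16 and a range of 8 to 1712 outside them. A pileup of 15 has an exact 95% Poisson interval of 8.40 to 24.7 fragments, so many of these peaks rest on few fragments. Such intervals cover counting error only. Fold enrichment divides this pileup by the background that the peak caller took from the input. Its median was 4.53 (4.39 to 4.77) in promoters and 4.64 (4.59 to 4.68) elsewhere. At least 4-fold enrichment was reached by 165 promoter peaks (65.7%, 59.7% to 71.3%), and by 69.7% of all 3465 peaks. At least 10-fold was reached by 7 promoter peaks (2.79%, 1.36% to 5.64%), and by 2.48% of all peaks. Median fold was 4.43 in promoter(1k), 4.54 in promoter(2k) and 4.66 in promoter(3k), with overlapping intervals. Peak length had a median of 304 bp (289 to 333 bp) in promoters and 311.5 bp (305 to 321 bp) elsewhere.

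Fold and pileup ranked the promoter peaks differently, because the background under them differed. Dividing (pileup + 1) by the fold gives this background, the expected number of fragments plus 1. It was at its lowest value, 2.48, in 54 promoter peaks (21.5%, 16.9% to 27.0%), where the fold follows from the pileup alone. The same held for 24.7% (23.3% to 26.3%) of the other peaks. At the other end, 30 promoter peaks (11.95%, 8.50% to 16.5%) fell in the tenth of all peaks with the highest background, above 10.8, against 9.83% (8.85% to 10.9%) of the other peaks. These 30 had a median pileup of 59 and a median fold of 2.59, while the remaining 221 promoter peaks had a median pileup of 14 and a median fold of 4.68. All 10 promoter peaks with the highest pileup were among the 30, and none of the 10 with the highest fold was. No peak stood in both lists of 10.

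**Figure D2:**
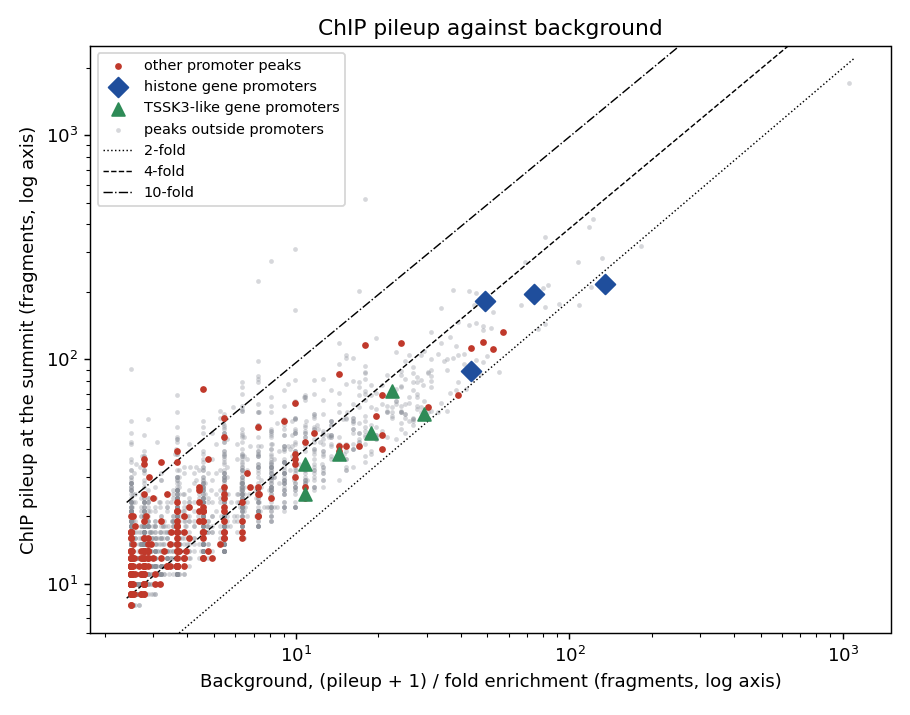
ChIP pileup at the summit (vertical axis, fragments, log scale) against the background, (pileup + 1) / fold enrichment (horizontal axis, fragments, log scale), for every peak. Red points are promoter peaks, blue diamonds the histone gene promoters, green triangles the TSSK3-like gene promoters and grey points the other peaks, and the broken lines mark 2-fold, 4-fold and 10-fold enrichment. The histone promoters have pileups of 89 to 216 but lie at 1.61-fold to 3.73-fold.

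The 10 promoter peaks with the highest fold were of mixed kinds, and 5 of the 10 had a nearest gene without a Swiss-Prot or KEGG name. The first lay 400 bp upstream of *ITFG3*, named for integrin-type FG-GAP repeats (M.coruscus_chr10_0097), with 74 ChIP fragments over a background of 4.56 and 16.5-fold enrichment. The next lay 814 bp upstream of an uncharacterized gene (M.coruscus_chr5_0747, chromosome 5, 31329802 to 31331010). It had 36 fragments and 13.4-fold enrichment, and the same gene had 4 further peaks outside the promoter. A peak 2405 bp upstream of a gene matching the polyprotein of the retrotransposon gypsy (M.coruscus_chr8_2342) had 12.6-fold. Upstream of *CCDC17*, a coiled-coil protein gene (M.coruscus_chr1_0514), a peak of 840 bp in length at 2578 bp reached 11.2-fold. The 5 others above 9-fold were near a gene matching aspartyl/asparaginyl beta-hydroxylase *ASPH* (10.9-fold), a gene with no match (M.coruscus_chr11_2397, 10.7-fold), an uncharacterized gene (M.coruscus_chr13_0436, 10.3-fold), *SLC15A5* (9.81-fold) and a glycosyl hydrolase gene (9.35-fold). Of the 10, 3 lay in promoter(1k), 3 in promoter(2k) and 4 in promoter(3k).

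The database columns gave a function to most but not all promoter genes. Of the 226 genes, 118 had a Swiss-Prot name, 36 a KEGG name only and 8 a usable name from TrEMBL or InterPro only. These 162 genes were placed in 16 groups by function, each gene in 1 group. A further 28 genes matched only proteins without a described function, and 36 genes, with 36 peaks, matched nothing. By peaks, 173 of 251 promoter peaks (68.9%, 62.9% to 74.3%) had a Swiss-Prot or KEGG name, against 76.9% (75.4% to 78.3%) of the 3214 other peaks. Within the other peaks the share was 89.1% (87.4% to 90.5%) in introns, 86.8% (81.1% to 91.0%) in exons and 62.9% (60.3% to 65.4%) in intergenic regions. Some names are weak, above all those from KEGG alone, so the source is given where it matters. Beyond the conflicts named with the genes below, KEGG gives another protein for further genes. Among them are *MARCO* (a collagen), *HSPA12A* (cullin-4), *MFSD5* (hexokinase), *DCDC2* (an abnormal spindle protein), *TCTEX1D1* (tektin-4) and *CCDC151* (an ABC transporter). Others are *MORN1* (a phosphoinositide kinase), *UBXN7* (a FAS-associated factor), *C1QL2* (caprin-2), collagen XII (collagen VI) and the gypsy-like gene (an ephrin receptor). The *ZNF569* match M.coruscus_chr11_0681 is a histone methyltransferase by KEGG.

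Membrane transporters were the group that holds the study's own candidate. Beyond its peak, the study reported luciferase and qRT-PCR assays of that gene and concluded that Nrf2 regulates it negatively. Those assays are not among the data used here. *SLC35E2*, of the family of nucleotide sugar transporters and their relatives (M.coruscus_chr13_0083), had 2 promoter peaks and none elsewhere. The nearer one (chromosome 13, 3686804 to 3687117) lay 517 bp upstream with 45 fragments (Poisson 95% interval 32.8 to 60.2), a background of 5.45 and 8.44-fold enrichment, the 11th highest of the 251. The farther one (3687424 to 3687794) lay 1332 bp upstream with 21 fragments (13 to 32.1), a background of 4.56 and 4.83-fold enrichment. Its relative *SLC35B4*, which carries UDP-xylose and UDP-N-acetylglucosamine (M.coruscus_chr1_3581), had a peak of 2.47-fold with 41 fragments over a background of 17.0, so its pileup was near that of *SLC35E2* and its fold was far lower. Amino acid carriers were represented by *LAT1*, for large neutral amino acids (M.coruscus_chr4_0370), with peaks of 3.96-fold and 3.84-fold. The glycine transporter *SLC6A5* (M.coruscus_chr13_0198), which KEGG names as a proline transporter of the same family, had 3.46-fold, and the vesicular inhibitory amino acid transporter *VIAAT* (M.coruscus_chr1_3630) 3.95-fold.

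The peptide transporter *SLC15A1* (M.coruscus_chr14_0447) had 3.74-fold. The highest fold of the group, 9.81 at *SLC15A5* (M.coruscus_chr5_2834), rests on a KEGG name alone (E value 7e-10) for a gene whose InterPro match is an integrase domain. The organic ion transporter *SLC22A15* (M.coruscus_chr10_0572) had 6.85-fold, the sodium/calcium exchanger *NCX2* (M.coruscus_chr8_0023) 4.63-fold, the mitochondrial phosphate carrier *SLC25A3* (M.coruscus_chr1_1272) 4.36-fold and *MFSD5*, annotated as a molybdate-anion transporter (M.coruscus_chr6_2677), 3.80-fold. Over the 13 peaks of 11 transporter genes the median fold was 3.96, and 6 of 13 reached 4-fold. Counts at 4-fold or more, here and in the groups below, stand beside 65.7% of all promoter peaks and 69.7% of all 3465 peaks. With so few peaks per group, a count near these shares is not a result about the group.

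Enzymes of glycans and sugars had the highest median of the 16 groups, 5.996-fold over 11 peaks of 8 genes. At least 4-fold was reached by 10 of the 11 peaks, beside 65.7% of all promoter peaks. *POMGNT1*, which extends O-linked mannose on glycoproteins such as dystroglycan (M.coruscus_chr1_0207), had peaks of 8.31-fold at 1285 bp and 4.22-fold at 2388 bp upstream. The carbohydrate sulfotransferase *CHST9* (M.coruscus_chr3_0605) had 7.196-fold with 19 fragments at 1634 bp, and 6.57-fold with 64 fragments at 820 bp. Chondroitin sulfate synthase *CHSY1* (M.coruscus_chr8_0714) had 7.21-fold, and a chitin synthase (M.coruscus_chr8_1520), an enzyme that makes the polysaccharide of arthropod cuticle and mollusc shell matrix, had 5.66-fold. Thus biosynthetic enzymes of surface and matrix glycans gave 6 of the 11 peaks. The sugar-releasing enzymes were an alpha-amylase known from KEGG alone (M.coruscus_chr7_2742, 5.996-fold), lysosomal alpha-glucosidase *GAA* (M.coruscus_chr5_0572, 4.88-fold and 4.03-fold, with a KEGG name of another protein, codanin-1) and 2 genes with a glycosyl hydrolase family 49 domain. These 2, M.coruscus_chr7_0470 and M.coruscus_chr7_0466, lay on the same chromosome and had 9.35-fold and 3.30-fold.

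Metabolic and redox enzymes gave 12 genes with 1 peak each, a median of 4.75-fold and 10 of 12 peaks at 4-fold or more. The highest, *ASPH* (M.coruscus_chr7_0859), is an oxygenase that hydroxylates aspartate and asparagine, named by KEGG alone, with 39 fragments over a background of 3.67. The hydrolase *CMBL* (M.coruscus_chr12_1940) had 7.69-fold. Mitochondrial members were *BCKDHB*, of branched-chain amino acid breakdown (M.coruscus_chr6_0204, 5.52-fold), and 2 genes of respiratory complex I, the subunit *NDUFB3* (M.coruscus_chr14_0653, 5.22-fold) and the assembly factor *NDUFAF7* (M.coruscus_chr3_3174, 3.16-fold). The methyltransferase *NNMT* (M.coruscus_chr14_0868) had 4.68-fold. A ferric-chelate reductase gene, *FRRS1* (M.coruscus_chr1_0458), and a FAD-dependent glucose dehydrogenase gene (M.coruscus_chr9_1889) each had 4.43-fold with 10 fragments. KEGG names the *FRRS1* gene as an exosome subunit instead. A monooxygenase gene named senecionine N-oxygenase (M.coruscus_chr5_2883, 3.598-fold) has a weak match (E value 7e-06), and KEGG names it as a histone methyltransferase. No Swiss-Prot or KEGG name in the promoter set was a glutathione, thioredoxin, NAD(P)H quinone reductase, catalase or superoxide dismutase enzyme. Most of these families were not counted over all 3465 peaks, so their absence here is not read as a trait of promoters. The wider word list of oxidoreductases and detoxification had 8 of 135 peaks in promoters (5.93%), beside 7.24% of all peaks. The 8 include a gene matching a transposon polyprotein (M.coruscus_chr7_1107). A peroxidase name from KEGG stood beside M.coruscus_chr1_1879 (4.68-fold), which Swiss-Prot leaves uncharacterized. The Nrf2 pathway list held words for Nrf2, Keap1, Maf, heme oxygenase, NAD(P)H quinone enzymes and glutamate-cysteine ligase. That list matched 0 of the 3465 peaks. It finds only names that hold its words, so the 0 is not read as absence of these genes.

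Genes of protein turnover and folding numbered 13, with 13 peaks, a median of 4.41-fold and 9 peaks at 4-fold or more. Ubiquitin genes were the largest set. They included *TRIM3* (M.coruscus_chr2_0024, 6.23-fold), *TRIM2* (M.coruscus_chr3_1318, 5.21-fold) and the related *wech* (M.coruscus_chr11_2254, 4.39-fold), all of the tripartite motif family that contains ubiquitin ligases. The ubiquitin adaptor *UBXN7* (M.coruscus_chr1_2078) had 4.43-fold, the F-box gene *FBXO39* (M.coruscus_chr7_2889) 4.36-fold and the conjugating enzyme *UBE2D* (M.coruscus_chr7_0337) 3.95-fold, the last with its summit 1 bp downstream of the TSS. *DCUN1D1*, which promotes attachment of NEDD8 to cullins (M.coruscus_chr3_0596), had 2.93-fold over a background of 14.3. Chaperone genes were *HSPA12A* (M.coruscus_chr2_1984, 5.05-fold), the chaperonin subunit *CCT5* (M.coruscus_chr2_2935, 4.41-fold) and *DNAJC9* (M.coruscus_chr2_0066, 3.597-fold). Among metalloproteases, *ADAM12* (M.coruscus_chr13_1913), named by KEGG alone, had 116 fragments over a background of 17.9 and 6.54-fold. It was the highest fold among the 30 promoter peaks with high background. *MMEL1*, a neprilysin relative (M.coruscus_chr2_0098), had 4.57-fold, and *ADAMTS18* (M.coruscus_chr3_3056) 3.95-fold.

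Genes of DNA repair, replication and cell division gave 13 peaks of 9 genes, with a median of 4.84-fold and 11 of 13 peaks at 4-fold or more. Of the 13, 8 lay in promoter(1k), beside 33.5% of all promoter peaks. ATM, the kinase that signals DNA double-strand breaks, was the match of 2 genes on chromosome 9. M.coruscus_chr9_0780 had 3 promoter peaks, of 6.05-fold at 2016 bp, 4.36-fold at 1309 bp and 4.03-fold at 896 bp upstream. M.coruscus_chr9_0782 had 7.26-fold at 2907 bp and 4.84-fold at 893 bp. Pileups in these 5 peaks were low, from 9 to 17 fragments. *RAD54*, of homologous recombination (M.coruscus_chr14_0298), had 4.68-fold with its summit 24 bp from the TSS. Both genes matching *DCLRE1A*, of crosslink repair (M.coruscus_chr8_2640 and M.coruscus_chr3_3128), had lower folds of 3.67 and 3.54. *RAD54* and *DCLRE1A* are names from KEGG alone. The replication origin subunit *ORC4* (M.coruscus_chr2_0015) had 4.68-fold and the centromere protein *CENPL* (M.coruscus_chr5_2750) 5.24-fold. The centrosome gene *CEP63* (M.coruscus_chr3_2292) had 2 peaks, of 5.64-fold and 4.84-fold.

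Histone genes and the transcription machinery gave 11 peaks of 10 genes, with a median of 3.96-fold, and the group split into a part with deep pileup and a part with few fragments. On chromosome 5, 3 histone genes within 28189 bp carried 4 promoter peaks. The H4 gene M.coruscus_chr5_1641 had 216 fragments over a background of 134 (1.61-fold, 1826 bp upstream), the deepest pileup and the lowest fold of all 251 peaks. Its other peak, 639 bp upstream, had 3.73-fold over a background of 49.0. The H4 gene M.coruscus_chr5_1637 had 89 over 43.7 (2.06-fold), and the H2A gene M.coruscus_chr5_1646 had 196 over 74.0 (2.66-fold). All 4 thus lay over a high background. The other genes of the group had 10 to 23 fragments. *Dr1*, a repressor of the TATA-binding protein (M.coruscus_chr2_2021), had 6.54-fold. *SETD2*, a histone H3 methyltransferase named by KEGG alone (M.coruscus_chr8_0181), had 6.85-fold. Factors of elongation were *AFF4* (M.coruscus_chr9_2565, KEGG alone, 5.24-fold at 343 bp) and cyclin T1 (M.coruscus_chr2_0800, 3.96-fold at 309 bp), which work together with the kinase CDK9. A gene matching *RPB1*, the largest subunit of RNA polymerase II (M.coruscus_chr1_0055, KEGG alone), had 4.87-fold, and the arginine methyltransferase *PRMT1* (M.coruscus_chr6_0085) 3.12-fold.

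Sequence-specific transcription factors gave 8 peaks of 7 genes, with a median of 4.29-fold and 12 to 24 fragments per peak. *NFIL3* (M.coruscus_chr1_0056), a repressor of the bZIP family like Nrf2, had 6.05-fold at 810 bp, and *ZEB1*, a repressor with zinc fingers and a homeodomain (M.coruscus_chr5_2151), had 3.08-fold. The other 5 genes all code for zinc finger proteins of the C2H2 type and all lie on chromosome 11. *ZNF208* (M.coruscus_chr11_0405) had 6.12-fold at 2931 bp and 3.54-fold at 333 bp. Genes matching *ZNF569* had 5.397-fold (M.coruscus_chr11_0758) and 5.04-fold (M.coruscus_chr11_0681). *ZNF226* (M.coruscus_chr11_0301) had 2.91-fold and *ZFP2* (M.coruscus_chr11_2482) 2.68-fold. Over the whole table, peaks of genes with a C2H2 domain numbered 57, of which 21 were on chromosome 11. Of those 21, 6 were promoter peaks, beside 19 of all 213 peaks on that chromosome (8.92%, 5.78% to 13.5%), and of the 36 on other chromosomes, 2 were. The chromosome was singled out after its values were seen.

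Genes of RNA processing, export and translation gave 8 peaks of 7 genes with a median of 5.09-fold, and 7 of 8 peaks reached 4-fold. Several of them act on the cap of messenger RNA. The cap-binding subunit *NCBP1* (M.coruscus_chr8_0081) had 26 fragments and 6.13-fold at 1208 bp, and 4 further peaks lay outside its promoter. The mRNA capping enzyme gene (M.coruscus_chr12_2012, KEGG alone) had 5.24-fold at 2064 bp and 4.43-fold at 334 bp. *EIF4G3*, a scaffold that bridges the cap and the ribosome (M.coruscus_chr13_0856), had 4.44-fold. The splicing factor *U2AF2* (M.coruscus_chr10_0966) had 118 fragments (97.7 to 141) over a background of 24.1, and 4.93-fold at 1492 bp. The export factor *THOC7* (M.coruscus_chr1_2608) had 6.05-fold. The translational regulator Musashi (M.coruscus_chr2_0179, 5.24-fold) and the exosome nuclease *DIS3* (M.coruscus_chr2_2446, 3.30-fold) were names from KEGG alone.

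Protein kinases and phosphatase regulators formed the largest of the 16 named groups by peaks, 19 of 16 genes, and had the lowest median, 3.56-fold. Of the 19 peaks, 5 belong to 4 genes, described below, that may not code for kinases. The rank by size rests on them, since membrane traffic, lipids and nuclear transport had 17 peaks. Testis-specific serine/threonine kinase 3 (TSSK3), known in mammals from spermatids, was the match of 5 genes with 6 promoter peaks. On chromosome 1, 4 of these genes (M.coruscus_chr1_2680 to M.coruscus_chr1_2683) stood side by side, with 5 peaks within 11763 bp (117107037 to 117118799). The 5 peaks had 25 to 57 fragments over backgrounds of 10.8 to 29.5 and folds of 1.97 to 3.24. The fifth gene, M.coruscus_chr1_0838, had 72 fragments over 22.4 (3.27-fold). All 6 peaks thus stayed under 4-fold, and 5 of them were among the 30 promoter peaks with the highest background. The 6 promoter peaks had a median fold of 2.64 and a median background of 16.6, against 2.83 and 14.3 in the 4 other peaks of genes with this name.

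KEGG gave the name homeodomain-interacting protein kinase (HIPK) to 4 promoter genes that Swiss-Prot and InterPro left without any match. Their 5 peaks had 12 to 20 fragments and folds of 3.54 to 5.44. The same KEGG name stood beside 20 peaks of 10 genes in the whole table, and the columns do not settle whether these genes code for kinases. Other kinase genes were *SGK3*, activated by phosphoinositide signals (M.coruscus_chr1_1472, 6.05-fold), and *TNNI3K* (M.coruscus_chr2_0225, 3.92-fold). A gene matching *RIPK* had 4.64-fold, from a KEGG match of E value 1e-06 (M.coruscus_chr13_0107). Phosphatase 1 regulators were *PPP1R16B* (M.coruscus_chr5_2801, 4.09-fold) and *PPP1R21* (M.coruscus_chr3_0307). *PPP1R21* had 25 fragments over 7.29 at 1973 bp and 69 over 20.6 at 1386 bp, so that the folds were nearly equal, 3.56 and 3.40.

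**Figure D3:**
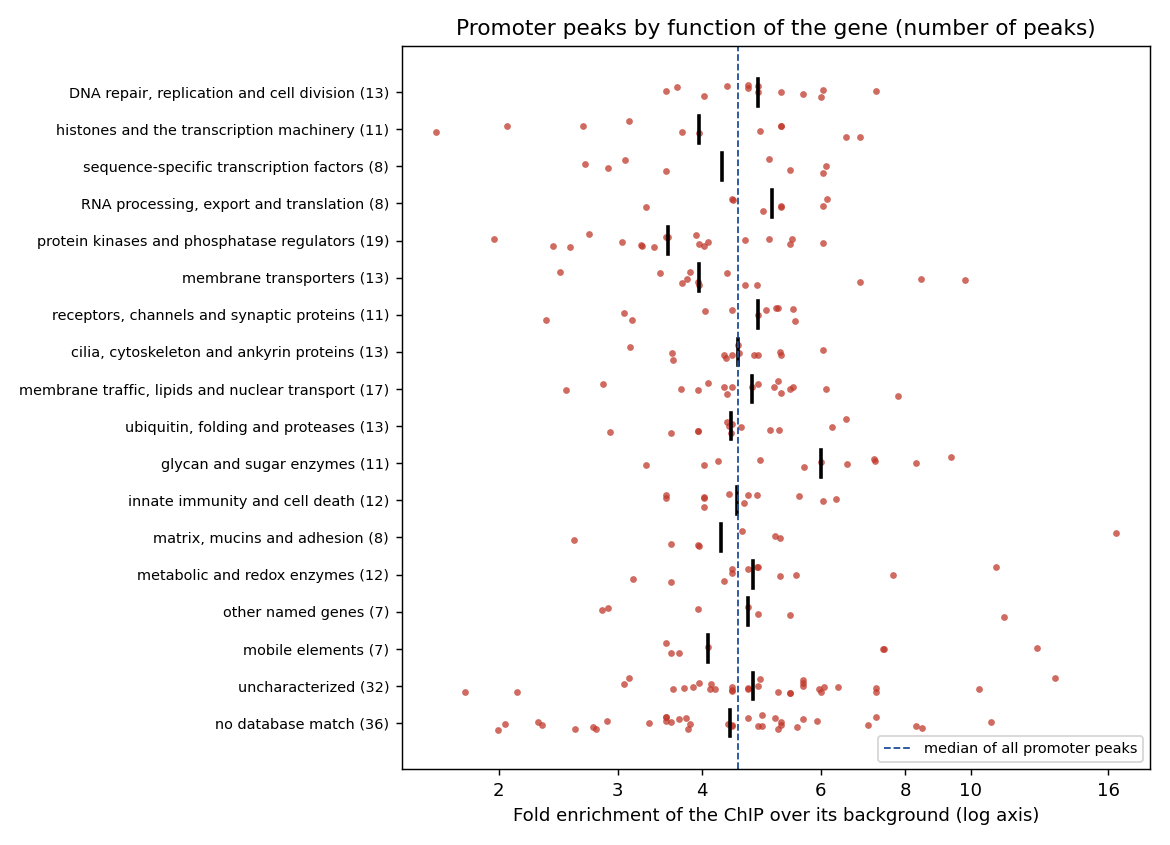
Fold enrichment of each promoter peak (horizontal axis, log scale) by function group of its gene (vertical axis, with the number of peaks). Points are peaks, black bars are group medians and the broken line is the median of all promoter peaks, 4.53. Glycan and sugar enzymes have the highest group median, 5.996, and protein kinases and phosphatase regulators the lowest, 3.56.

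Receptors, channels and synaptic proteins gave 11 genes with 1 peak each and a median of 4.84-fold. Of the 11 peaks, 2 lay in promoter(1k), beside 33.5% of all promoter peaks. *GAD1*, which makes the transmitter GABA (M.coruscus_chr2_1471), had 5.14-fold. The synaptic adhesion protein neurexin-1 (M.coruscus_chr3_1757) had 4.43-fold. G protein-coupled receptor genes were M.coruscus_chr5_0336 (4.98-fold), the adhesion receptor *ADGRL3* (M.coruscus_chr8_2371, 4.84-fold) and *CALCRL* (M.coruscus_chr2_3119, 3.07-fold). The first of these matches the ghrelin receptor *GHSR* only weakly in Swiss-Prot (E value 9e-06), and KEGG names it as another receptor of the class (E value 8e-136). *CASR*, a calcium-sensing receptor by a weak KEGG match (M.coruscus_chr1_2696, E value 9e-06), had 133 fragments over a background of 57 and 2.35-fold. The channel genes *TMC1* (M.coruscus_chr2_3341) and *HVCN1* (M.coruscus_chr6_0180, KEGG alone, E value 4e-06) had 5.18-fold and 5.45-fold.

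Genes of cilia, the cytoskeleton and ankyrin repeats gave 13 genes with 1 peak each, a median of 4.53-fold and 8 to 30 fragments. The word list for cytoskeleton, motors and cilia had 11 of its 206 peaks in promoters (5.34%, 3.01% to 9.31%), beside 7.24% of all peaks. *C21orf59*, needed for assembly of dynein arms (M.coruscus_chr9_0595), had 5.22-fold at 155 bp, and *CCDC151*, of dynein arm docking (M.coruscus_chr2_0267), had 3.62-fold. The tubulin polyglutamylase *TTLL6* (M.coruscus_chr8_0108) had 4.84-fold, the doublecortin gene *DCDC2* (M.coruscus_chr12_0392) 5.24-fold, *TCTEX1D1*, of the dynein light chain family (M.coruscus_chr9_0040), 4.43-fold and a dynein heavy chain gene (M.coruscus_chr5_0730) 4.32-fold. *MORN1* (M.coruscus_chr5_2782) had the highest fold of the group, 6.05. Muscle filament names from KEGG alone were a paramyosin (M.coruscus_chr4_0863, 4.53-fold) and a myosin heavy chain (M.coruscus_chr3_3146, 4.77-fold).

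Membrane traffic, lipids and nuclear transport gave 17 peaks of 16 genes, with a median of 4.74-fold and 13 peaks at 4-fold or more. *PIKfyve*, which makes the endosomal lipid PI(3,5)P2 (M.coruscus_chr7_0928), had 36 fragments and 7.80-fold. *FCHO2*, an initiator of clathrin-coated pits (M.coruscus_chr1_3635), had 6.12-fold, *MIA3*, of collagen export from the endoplasmic reticulum (M.coruscus_chr3_0431), 5.45-fold and seipin, of lipid droplet formation (M.coruscus_chr3_0193), 5.24-fold. *SNX30* (M.coruscus_chr1_1465) had 4.84-fold. Importin-4, a nuclear import receptor, was the KEGG name of 2 genes (M.coruscus_chr2_1861, 5.18-fold, and M.coruscus_chr9_1603, 4.74-fold), and the second of them carries a transposase domain by InterPro. *MTMR10*, of the myotubularin family (M.coruscus_chr2_2669, KEGG alone), had 2 peaks of 3.73-fold and 2.85-fold. *AGAP2*, an Arf GTPase-activating protein by KEGG alone (M.coruscus_chr11_2521), had 120 fragments over a background of 48.2 and 2.51-fold, and 5 more peaks outside its promoter.

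Innate immunity and cell death gave 12 peaks of 10 genes, with a median of 4.51-fold, 10 peaks at 4-fold or more and at most 21 fragments. *NWD1*, with a NACHT domain (M.coruscus_chr10_2505), had 6.32-fold and 4.62-fold, the scavenger receptor *MARCO* (M.coruscus_chr10_0079) 6.05-fold and a gene that KEGG names *DMBT1*, another scavenger receptor (M.coruscus_chr14_0182), 5.57-fold. A gene with a Mab-21 domain that KEGG names cGAS, a sensor of cytosolic DNA (M.coruscus_chr3_0432), had 4.83-fold, but its Swiss-Prot match is an unrelated surface antigen. Lectin genes were a C-type lectin gene with peaks of 4.68-fold and 4.39-fold (M.coruscus_chr1_2042), another with 3.54-fold (M.coruscus_chr11_0728) and a mannose receptor gene with 4.03-fold (M.coruscus_chr6_1797). *IRGC*, an interferon-inducible GTPase (M.coruscus_chr3_1951), and *C1QL2* (M.coruscus_chr12_1649) each had 4.03-fold with 9 fragments. The death domain adaptor *CRADD* (M.coruscus_chr12_0254) had 3.54-fold.

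Matrix, mucin and adhesion genes gave 8 peaks of 7 genes with a median of 4.27-fold, which leaves *ITFG3* at 16.5-fold far above the rest. Its 74 fragments have a Poisson 95% interval of 58.1 to 92.9. Cadherin-23 (M.coruscus_chr10_0283, named outside Swiss-Prot and KEGG) had 5.22-fold and 3.95-fold, and collagen XII (M.coruscus_chr14_1619) 5.14-fold. Mucin names came from KEGG or TrEMBL. They were mucin-2 (M.coruscus_chr11_2124, 4.59-fold), mucin-19 (M.coruscus_chr6_2655, 3.598-fold) and mucin-5AC (M.coruscus_chr3_3129), which had 112 fragments over a background of 43.7 and 2.59-fold. The name mucin-19 comes from TrEMBL, while KEGG names that gene as a golgin or trichohyalin. Mobile elements gave 7 peaks of 5 genes. The gypsy-like gene had 12.6-fold, 7.45-fold and 3.54-fold, and a reverse transcriptase gene of the BS transposon (M.coruscus_chr5_2362) had 7.41-fold at 963 bp. The uncharacterized genes and those with no match had medians of 4.76-fold and 4.40-fold, and gave 12 of the 30 promoter peaks with high background.

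In 22 promoter genes (9.73%, 6.52% to 14.3%) there was more than 1 promoter peak, 2 in 19 genes and 3 in 3 genes, which together gave 47 of the 251 peaks. The 3 genes with 3 peaks were M.coruscus_chr9_0780 (ATM), M.coruscus_chr8_2342 (gypsy) and the uncharacterized M.coruscus_chr13_0436. In the last of these, the peaks had 10.3-fold at 2120 bp and 6.06-fold at 1214 bp upstream, and 4.18-fold at 86 bp downstream, with 55, 86 and 16 fragments. Summits of the same gene were 484 to 2598 bp apart, with a median span of 1153.5 bp. In 13 of the 22 genes the peak with the highest fold was the farthest one from the TSS. Since 19 of the 22 genes had only 2 peaks, this count is not read as a preference for distance. The share of genes with several peaks was not counted outside promoters, so the 9.73% is not read as a trait of promoters.

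**Figure D4:**
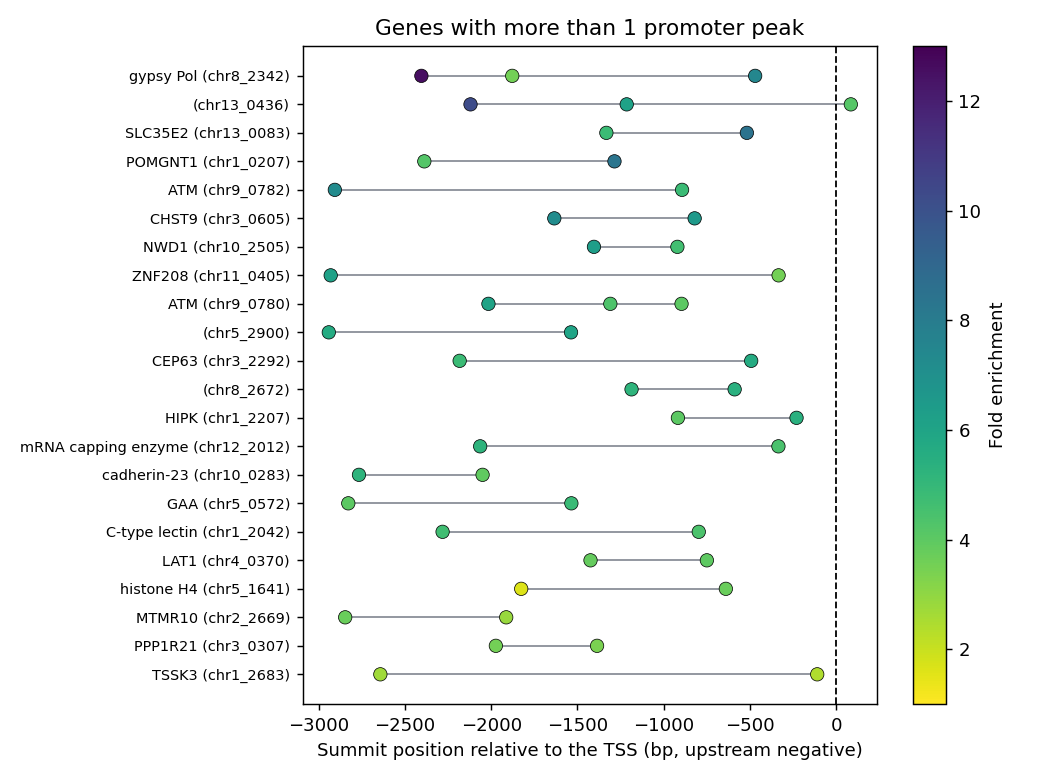
The 22 genes with more than 1 promoter peak (vertical axis, name and locus, ordered by highest fold) and the positions of their summits relative to the TSS (horizontal axis, bp, upstream negative). Each circle is a peak, its colour is the fold enrichment, and the grey line joins peaks of the same gene. The spans run from 484 bp in NWD1 to 2598 bp in ZNF208.

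A peak outside the promoter was found for 56 of the 226 genes (24.8%, 19.6% to 30.8%). These 56 genes had 96 such peaks, 49 intergenic, 34 in introns, 10 in exons and 3 downstream. Of the 96, 20 lay from 6 to 3 kb upstream, just beyond the promoter classes. For *NCBP1* a peak 3168 bp upstream had 68 fragments and 8.50-fold, more than the promoter peak itself. *CCDC17* had 9.35-fold at 3986 bp, and *PIKfyve* 7.36-fold at 3270 bp. A gene without any match, M.coruscus_chr4_0253, had a promoter peak of 7.26-fold and 4 intergenic peaks from 4023 to 11192 bp upstream with 7.66-fold to 13.9-fold. In *PPP1R21* an intron peak 18649 bp downstream of the TSS had 12.3-fold, against 3.56-fold and 3.40-fold in its promoter. *MARCO* had an intron peak of 8.45-fold. How many of the 2548 genes nearest to any of the 3465 peaks had several peaks was not counted. The 24.8% and these examples are therefore not read as a trait of promoter genes.

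Promoter peaks of different genes rarely lay close together. With gaps of up to 20 kb between summits, 6 runs held promoter peaks of more than 1 gene, with 15 genes and 17 peaks. Besides the TSSK3 and histone runs, they included 2 enolase genes, of glycolysis, on chromosome 13 (M.coruscus_chr13_0064, 4.83-fold, and M.coruscus_chr13_0063, 4.32-fold). *NBAS* (M.coruscus_chr14_0180, KEGG alone, 5.12-fold) and the *DMBT1*-like gene formed another run within 4348 bp. By chromosome, the share of peaks that lay in promoters ran from 3.90% on chromosome 4 (8 of 205) to 10.1% on chromosome 13 (17 of 168). The Wilson interval of each of the 14 chromosomes included the 7.24% of all peaks, and 1 promoter peak lay on an unplaced sequence.

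To set the functions against the whole table, 18 lists of words were matched to the names of all peaks, and the share of each list's peaks that lay in promoters was read beside the 7.24% over all peaks. In 4 lists the Wilson interval lay above 7.24%, in none below it, and the words of 1 list, the Nrf2 pathway, matched no peak. Innate immunity and apoptosis had 7 of 47 peaks in promoters (14.9%, 7.41% to 27.7%). With at most 1 promoter and 1 other peak per gene, its interval began at 7.06%, beside 8.68% of all peaks so kept. With a −log10 q of at least 3 the interval began at 3.35%, beside 6.88%. DNA repair and cell cycle had 13 of 88 (14.8%, 8.84% to 23.7%), 5 of them from the ATM genes, and 10.0% (5.15% to 18.5%) without those genes. This list also counts cyclin T1 and the myosin-like gene M.coruscus_chr3_3146, which KEGG also calls centromere protein F-like. Membrane transporters had 14 of 96 (14.6%, 8.89% to 23%), and 12.8% (7.46% to 21%) without *SLC35E2*. The 14 include *CCDC151*, counted for its KEGG name, and *SLC15A5*, which KEGG alone names. Their interval began at 6.62% with a −log10 q of at least 3, beside 6.88% of all peaks, and at 4.66% with at least 4-fold, beside 6.83%. Protein kinases had 21 of 155 (13.5%, 9.04% to 19.8%). This last share rested on repeated names, since it was 10.3% (6.37% to 16.4%) without the TSSK genes and 4.27% (1.84% to 9.62%) without the TSSK, HIPK and ATM genes. Oxidoreductases and detoxification had 8 of 135 (5.93%, 3.03% to 11.3%). The 8 include a gene matching a transposon polyprotein (M.coruscus_chr7_1107) and M.coruscus_chr1_1879, which Swiss-Prot leaves uncharacterized. Receptors and ion channels had 11 of 231 (4.76%, 2.68% to 8.32%), and the 11 include the 3 promoter peaks of the gypsy-like gene. Proteases had 3 of 67 (4.48%, 1.53% to 12.4%). Peaks of the same gene are not independent, and no test was made of any list.

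**Figure D5:**
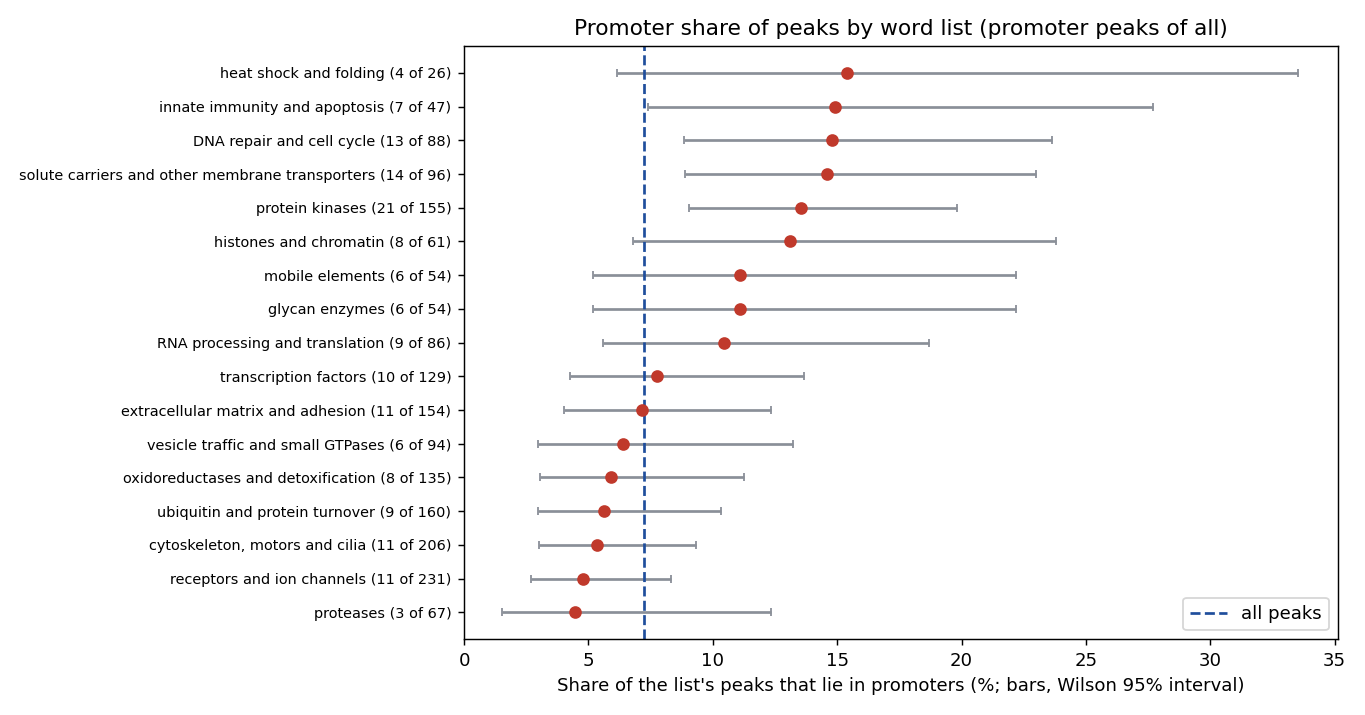
Share of each word list's peaks that lie in promoters (horizontal axis, %, with Wilson 95% intervals as bars) by list (vertical axis, promoter peaks of all peaks). The broken line is the share over all peaks, 7.24%. The intervals of innate immunity, DNA repair, transporters and protein kinases lie above the line and those of the 13 other lists include it.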

How the data were processed

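The labels' titles tell the ChIP library from the input library. Read trimming (Trimmomatic 0.36), quality checks (FastQC) and alignment to an unpublished genome (Bowtie2 2.5.1, unique reads) were done by the authors, who called peaks with MACS3 3.0.0a7 against the input. The study tabulates read totals per library, which were not used here. Duplicate handling, the q threshold and the gene models were not found in the labels or methods. The authors deposited a table with a pileup signal (fragments over each summit), a fold ratio to the local background, and q as −log10 (lowest 1.32). Distances to the TSS were measured from the summit, and positions are 1-based on the authors' build. No genome of that build was used, so no sequence is shown.

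Peaks were counted by class, gene, group and word list in Python 3.11.15 (NumPy 2.4.6, pandas 2.3.3, SciPy 1.17.1) and drawn with Matplotlib 3.10.9. Shares carry Wilson 95% intervals, medians intervals from order statistics, and pileups exact Poisson intervals. Interval coverage and the word match were checked on simulated data. Each promoter gene was put in 1 group after reading the 4 database columns. Genes named were up to 12 per group by highest fold that Swiss-Prot or KEGG names, every gene with more than 1 promoter peak or a shared name, the 10 highest by fold and by pileup, and the gene the study chose. A few others were named after their values were seen, and 1 gene is not reported here. The members, groups and lists were chosen with earlier results of these data known. Alternatives were a −log10 q of at least 3, at least 4-fold, and at most 1 promoter and 1 other peak per gene. Others left out the peaks of highest background, or used promoters by distance, promoter(1k) alone or Swiss-Prot alone.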

Additional observations from a re-analysis of the deposited data

How the results depend on the processing

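Of 163 values recomputed under other settings, 140 stayed within the interval of the value reported. Promoters cut to promoter(1k) alone held 2.42% of all peaks, and 1.20% of their genes had more than 1 promoter peak. By list, this setting gave 5.16% for protein kinases, 4.26% for innate immunity, 3.49% for RNA processing, 3.28% for histones and chromatin, 3.13% for transporters, 2.597% for matrix and adhesion, 2.33% for transcription factors, 1.88% for ubiquitin, 1.85% for glycan enzymes, 1.49% for proteases, 0.971% for cytoskeleton and cilia, 0.741% for oxidoreductases and 0.433% for receptors, all lower because fewer peaks count as promoter peaks. DNA repair and cell cycle stayed inside its interval at 9.09%. So did heat shock and folding at 7.69%, mobile elements at 5.56% and vesicle traffic and small GTPases at 3.19%. With at most 1 promoter and 1 other peak per gene, promoters held 8.68% of peaks. The 56 genes with both kinds of peak counted on each side. With a −log10 q of at least 3 the median fold was 5.04 and the median pileup 17, and with at least 4-fold the median fold was 5.18, both from dropping weak peaks. Swiss-Prot alone named 53.4% of promoter peaks. It gave promoter shares of 25% (10.2% to 49.5%) for histones and chromatin and 2.74% (0.755% to 9.45%) for matrix and adhesion. The promoter peaks with a histone name in Swiss-Prot were the 4 over high background on chromosome 5. Leaving out the TSSK, HIPK and ATM genes, chosen after seeing the data, gave 4.27% for protein kinases. Set against the share over all peaks in the same setting, only DNA repair, of the 4 lists above 7.24%, had its interval above that share in every setting except without the ATM genes. Protein kinases began at 5.73% with at least 4-fold, beside 6.83% of all peaks. No paired analysis was possible because there is 1 library of each kind.

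Depth limits what can be said: a peak with 15 fragments, the median in promoters, has a counting interval of 8.40 to 24.7 fragments, and with 1 ChIP library the variation between animals or preparations is unknown. A nearest gene is an annotation by distance, and names from KEGG alone are the least certain.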
